A study of Mus musculus with 30 samples.

Results

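Transcript levels of 9 genes, listed under the name of a T-bet, Tox and Stat4 B cell programme, were followed in 18 RNA-seq libraries of mouse splenic B cells. The name is that of the list, and whether these genes mark a single cell state was not tested. The genes are Tbx21, Tox, Stat4, Zeb2, Itgax, Fcrl5, Dpp4, Prkd3 and Afap1, and they are 9 of 20768 gene symbols found in both deposited expression tables. They were picked by name, with the difference between leukaemic and wild-type cells of aged mice already in view, so every value from the aged mice is given as a description without a test. The young mice are a separate table, and there the members were tested. The members and lists were chosen with earlier results of these data known, so the young p-values may not be independent of that choice.

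The young mice (C57BL/6, 2 to 3 months) were wild type (n = 3) or homozygous for a conditional knock-in of Ikzf3-L161R, written Ikzf3 fl/fl (n = 3). The gene Ikzf3 codes for Aiolos, an Ikaros-family zinc finger protein that binds DNA, and expression of the mutant was restricted to B cells. The driver of that restriction is not given in the sources used here. The aged mice (C57BL/6, 15 to 18 months) gave 3 groups: B cells of wild-type mice (n = 3), non-CLL B cells of mutant mice (n = 4) and B220+CD5+ CLL-like cells sorted by flow cytometry from leukaemic mice (CLL, n = 5). Libraries 2, 4 and 5 of both mutant groups are heterozygous (Ikzf3 fl/+) and library 6 is homozygous, and CLL library 1 is heterozygous with no non-CLL partner. All other B cells were taken from the spleen by magnetic selection, at 85% purity or more where the labels state it, and the sources used here do not say how non-CLL B cells were separated from CLL cells of the same spleen. The labels do not say that each young library is a separate animal, so the young p-values measure the spread between these libraries. That spread may be technical in part, though sex-linked transcripts show that the young wild-type libraries come from more than 1 animal.

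As background, T-bet (the product of Tbx21) is a T-box transcription factor that drives interferon-gamma responses in T cells, and in B cells it marks age-associated B cells, which gather in the spleen with age and carry the integrin CD11c. Signals through Toll-like receptors, interferon-gamma and interleukin-21 bring this state about, and Zeb2 is needed for it. Stat4 passes on interleukin-12 and type I interferon signals, and Tox is an HMG-box factor best known from T cell development and exhaustion. Several of these genes are also active in T cells, NK cells and dendritic cells, so markers of those cells are given beside the results. In bulk RNA, fewer cells of a type and less RNA per cell cannot be told apart.

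Levels are in TPM, which is scaled per transcript length and per library, so genes may be compared within a table. TPM keeps no record of read number, so the depth behind each value is unknown. All 9 B cell markers checked, among them Ms4a1 and Cd79a, were detected in every library, and they summed to between 6035 and 15549 TPM in the aged and between 8798 and 10410.3 TPM in the young libraries. The aged libraries carried an unequal floor of low signal. Olfactory receptor genes, which B cells are not known to use, had a median of 1.08 to 9.66 TPM in CLL, 7.16 to 9.24 TPM in non-CLL and 0 to 0.745 TPM in wild-type libraries, and a median of 0 in every young library. Their 95th percentile was 2.87 to 6.48 TPM in CLL libraries 1, 2, 4 and 5, 18.0 TPM in CLL library 6 and 13.9 to 27.1 TPM in non-CLL libraries. Values under these levels lie within the floor. In CLL library 6 this holds for 7 of the 9 members, all but Zeb2 and Fcrl5. In non-CLL library 6 it holds for Tbx21, at 24.0 TPM. The shift of all genes is printed beside each comparison.

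The upstream sequences below show 3 of the genes that were low in CLL cells (Tbx21, Stat4, Dpp4) and the 1 that was not (Fcrl5). Each is the 250 bases before the first listed start on GRCm38.p6, the assembly of mm10. For Stat4, Dpp4, Fcrl5 and Itgax that start lies inside the gene span printed further below. The last bases of those windows therefore overlap the gene. Capitals mark GGGAA, the core of Ikaros-family sites, or its reverse complement TTCCC. The Stat4 match reaches into the overlap with the gene, and the last Dpp4 match lies within it. The Tbx21 stretch is chr11:97115332-97115581 (minus strand), that of Stat4 is chr1:51986898-51987147 (plus strand), that of Dpp4 is chr2:62412232-62412481 (minus strand) and that of Fcrl5 is chr3:87435532-87435781 (plus strand).
Tbx21: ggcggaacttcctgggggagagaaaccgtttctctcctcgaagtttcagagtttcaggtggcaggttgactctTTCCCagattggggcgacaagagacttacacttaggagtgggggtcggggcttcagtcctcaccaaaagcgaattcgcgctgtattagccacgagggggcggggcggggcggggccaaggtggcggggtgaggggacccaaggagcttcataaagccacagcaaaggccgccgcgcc
Stat4: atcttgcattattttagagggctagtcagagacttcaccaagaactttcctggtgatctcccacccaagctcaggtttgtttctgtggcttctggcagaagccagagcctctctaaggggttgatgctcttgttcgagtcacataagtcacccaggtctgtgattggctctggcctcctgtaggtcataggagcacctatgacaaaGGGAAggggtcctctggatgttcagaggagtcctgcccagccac
Dpp4: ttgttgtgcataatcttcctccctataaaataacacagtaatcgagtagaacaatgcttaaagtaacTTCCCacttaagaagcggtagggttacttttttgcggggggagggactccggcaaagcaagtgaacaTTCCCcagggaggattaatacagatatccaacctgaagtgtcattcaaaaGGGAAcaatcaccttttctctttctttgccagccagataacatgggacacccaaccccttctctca
Fcrl5: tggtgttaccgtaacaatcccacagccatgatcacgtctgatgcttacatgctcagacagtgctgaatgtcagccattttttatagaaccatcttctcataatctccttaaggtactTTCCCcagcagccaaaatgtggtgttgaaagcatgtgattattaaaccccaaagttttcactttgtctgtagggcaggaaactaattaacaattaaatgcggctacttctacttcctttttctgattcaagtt
GGGAA on either strand occurred in the 250 bases before the first listed start of 7 of the 8 members with an upstream sequence. It occurred in 56.2% of all 32851 upstream sequences. Afap1 was the member without it. Dpp4 and Itgax each had 3 matches, and Fcrl5, which was not low in CLL cells, had 1 like Tbx21 and Stat4. Of 3 other motifs searched on both strands, the T-box core GGTGTGA (3.33% of all upstream sequences) and the STAT pair TTCNNNGAA (7.02%) were in the first upstream stretch of none of the 8, and the E-box CAGGTG bound by ZEB proteins (17.2%) was in that of Tbx21. A match is a run of letters in a window and not a bound site.

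In the aged mice, 8 of the 9 genes were lower in CLL cells than in every non-CLL library, and 6 were lower than in every wild-type library. Across all genes tested, 7.51% had all CLL libraries below all non-CLL libraries and 2.55% had them below all wild-type libraries. Nothing is read from these counts, because the genes were picked on this contrast. The median log2 difference of the 9 was -3.24 for CLL minus wild-type, where all genes tested had a median of 0.93, and -2.58 for CLL minus non-CLL, where it was -0.77. Both comparisons use the same 5 CLL libraries. Against the name of the programme, Fcrl5 did not follow the other 8 and was the most abundant of the 9 in every aged CLL library.

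The transcription factors come first. Tbx21 (GRCm38.p6 chromosome 11, 97098007 to 97115331) was at 17.1, 52.2 and 29.3 TPM in the 3 wild-type libraries. It was at 51.6, 28.5, 37.8 and 24.0 TPM in non-CLL libraries 2, 4, 5 and 6. In CLL libraries 1, 2, 4, 5 and 6 it was at 2.95, 3.08, 0, 1.75 and 6.16 TPM. Every CLL library lay below every other aged library, the 2 other groups overlapped, and CLL library 4 was listed at 0. The 95th percentile of olfactory receptor genes in the CLL libraries ran from 2.87 to 18.0 TPM, so the low CLL values are near this floor. The log2 difference was -3.28 for CLL minus wild-type, -3.47 for CLL minus non-CLL and 0.19 for non-CLL minus wild-type.

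Tox (chromosome 4, 6686353 to 6991557) had the widest spread among wild-type libraries, at 24.2, 308 and 132 TPM. Non-CLL libraries held 21.3, 46.1, 56.6 and 57.2 TPM. CLL libraries held 1.79, 3.82, 0.929, 6.69 and 7.71 TPM. The CLL values lay below all others, and wild-type library 2 was far above the rest. The log2 difference from wild-type cells was -4.51 with that library and -3.70 without it.

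Stat4 (chromosome 1, 51987106 to 52107189) had wild-type values of 89.7, 26.8 and 67.7 TPM and stood at 17.4, 48.9, 38.4 and 56.4 TPM in non-CLL libraries. CLL libraries were at 1.30, 4.25, 1.85, 3.68 and 11.8 TPM. The highest CLL value, in the homozygous library 6, was still below the lowest value of the other groups. That library also had the highest olfactory receptor median (9.66 TPM), and with each library's olfactory median subtracted the 5 CLL values ran from 0 to 2.15 TPM.

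Zeb2 (chromosome 2, 44983512 to 45117442), a zinc finger E-box repressor, was the factor that stayed clearly above the floor in CLL cells, at 31.1, 24.8, 26.2, 13.3 and 33.6 TPM. Non-CLL libraries had 78.9, 55.7, 42.3 and 53.7 TPM, all higher. Wild-type libraries had 15.5, 62.0 and 49.1 TPM, so wild-type library 1 lay among the CLL libraries. The log2 difference from wild-type was -0.54 and from non-CLL cells -1.16.

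**Figure D1:**
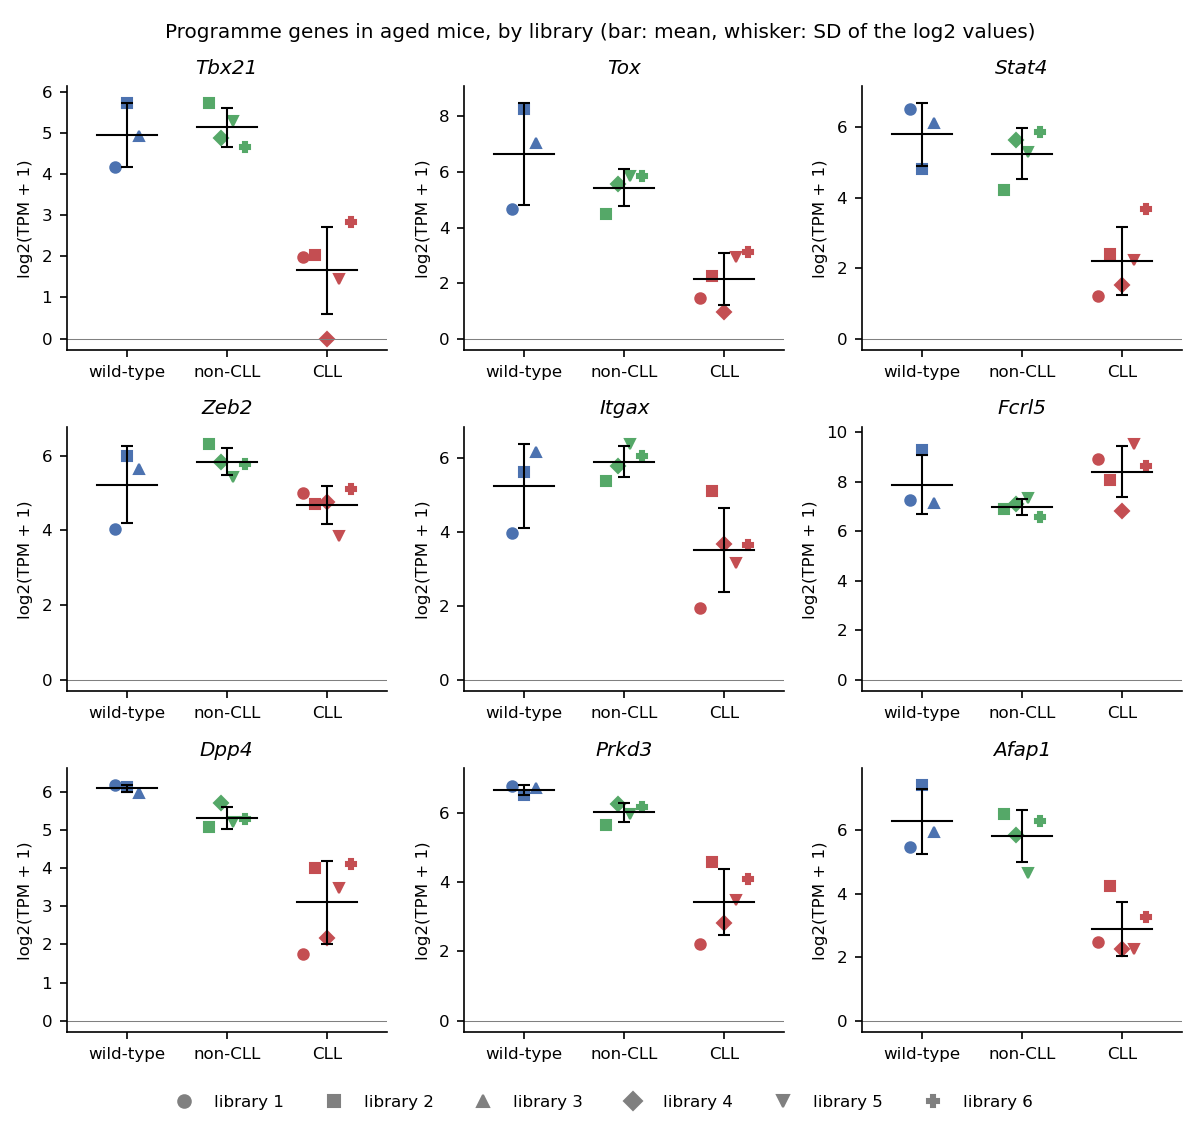
Level of each of the 9 genes in the 12 aged libraries as log2(TPM + 1), with 3 wild-type, 4 non-CLL and 5 CLL libraries as points, the group mean as a bar and the SD of the log2 values as a whisker. For Tbx21, Tox, Stat4, Dpp4, Prkd3 and Afap1 all CLL points lie below all others, for Zeb2 and Itgax they overlap with wild-type libraries, and for Fcrl5 they reach the highest level.

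Of the surface molecules, Itgax (chromosome 7, 128129526 to 128150657), which encodes CD11c, had wild-type values of 14.7, 48.0 and 70.4 TPM and stood at 40.8, 54.3, 83.1 and 65.2 TPM in non-CLL libraries. In CLL libraries it was at 2.83, 33.7, 11.8, 7.97 and 11.6 TPM. CLL library 2 stood above wild-type library 1, so these groups overlapped. That CLL library also had the highest summed level of 13 myeloid markers, 2397 TPM against 244 to 538 TPM in the other CLL libraries, with Lyz2 at 656 TPM. The part of these markers in the Itgax value was not tested, and without the library the log2 difference from wild-type was -2.14 rather than -1.74.

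Dpp4 (chromosome 2, 62330073 to 62412315), the membrane peptidase CD26, varied least among wild-type libraries, at 71.3, 68.6 and 61.9 TPM. Non-CLL libraries were at 32.7, 51.7, 35.7 and 38.0 TPM. CLL libraries were at 2.35, 15.2, 3.49, 10.2 and 16.3 TPM. The 3 groups did not overlap at all and fell in the order wild-type, non-CLL, CLL.

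Fcrl5 (chromosome 3, 87435777 to 87500678), an Fc receptor-like protein of B cells, was at 486, 269, 112, 744 and 397 TPM in CLL libraries. Non-CLL libraries were at 118, 134, 163 and 94.5 TPM, and wild-type libraries at 150.3, 612 and 140.3 TPM. The groups overlapped, since CLL library 4 was low and wild-type library 2 was high. The log2 difference was 0.52 from wild-type, or -0.43 when libraries were scaled to a common median, and 1.42 from non-CLL cells.

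Prkd3 (chromosome 17, 78949405 to 79020816), a protein kinase D that acts downstream of diacylglycerol, had wild-type values of 109.6, 90.4 and 106 TPM and stood at 49.7, 76.3, 62.3 and 70.7 TPM in non-CLL libraries. CLL libraries held 3.60, 22.9, 6.11, 10.1 and 16.2 TPM. As for Dpp4, the 3 groups were fully apart in the order wild-type, non-CLL, CLL. Dpp4 and Prkd3 were the 2 of 9 members with all non-CLL libraries below all wild-type libraries, a pattern shown by 2.33% of all genes tested.

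Afap1 (chromosome 5, 35893319 to 36003923), an adaptor that binds actin filaments and Src, was at 43.2, 173 and 60.8 TPM in wild-type and 90.0, 56.2, 24.3 and 76.7 TPM in non-CLL libraries. CLL libraries had 4.51, 17.8, 3.76, 3.80 and 8.60 TPM, all lower. Wild-type and non-CLL libraries overlapped, and the sign of their log2 difference, -0.46, turned to 0.11 without wild-type library 2.

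Per the series' design text, non-CLL cells came from the same mice as CLL cells, and the shared numbers 2, 4, 5 and 6 in the labels are read as those mice, which allows a comparison within each animal. Tbx21, Tox, Stat4, Zeb2, Itgax, Dpp4, Prkd3 and Afap1 were lower in CLL cells in 4 of 4 mice. For these genes every CLL library lay below every non-CLL library, so this count would hold under any pairing and nothing is read from it. The log2 difference within a mouse ran from -4.88 to -1.80 for Tbx21, from -4.61 to -2.21 for Tox and from -4.13 to -1.81 for Stat4. It was smaller for Zeb2, from -1.63 to -0.66, and closest to 0 for Itgax in mouse 2, at -0.27. Fcrl5 was lower in CLL cells of 1 of 4 mice and ranged up to 2.19. With the mouse as a block, the log2 differences of the 9 kept their signs.

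**Figure D2:**
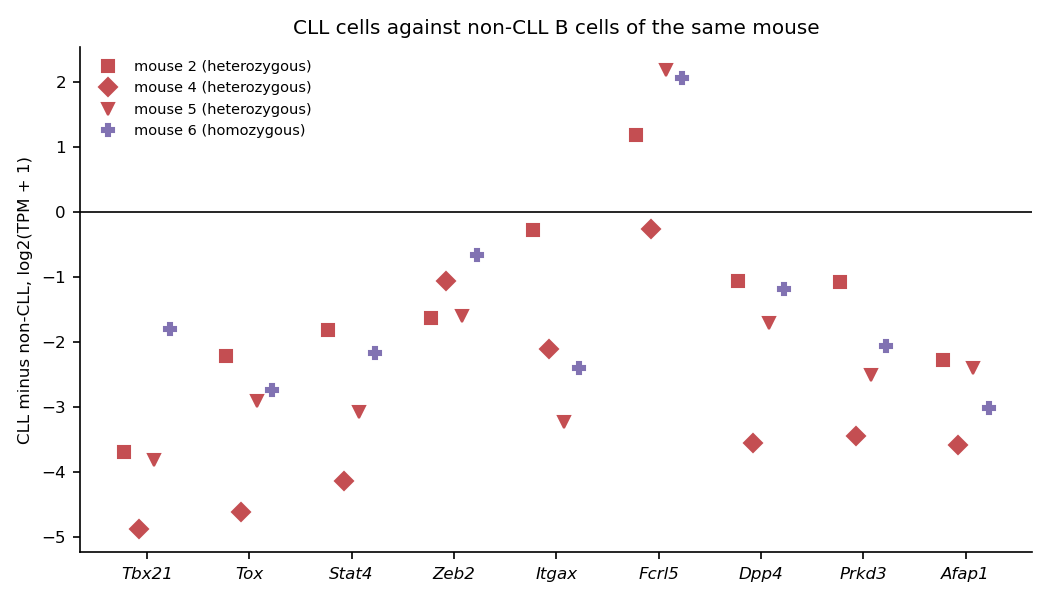
Difference between CLL and non-CLL cells of the same mouse, as CLL minus non-CLL on the log2(TPM + 1) scale, for each of the 9 genes, with 1 point per mouse. The points of 8 genes lie below 0 in all 4 mice, and those of Fcrl5 lie above 0 in 3 of 4.

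Markers of other cells differed in level between the groups. The sums below are TPM from which the unequal floor of the libraries was not subtracted. The summed level of 12 NK cell markers was 270.2 to 1018 TPM in non-CLL, 64.9 to 113 TPM in wild-type and 29.9 to 123 TPM in CLL libraries. Of these markers, 8 of 12 were called lower in CLL than in non-CLL cells, led by Gzma and Ncr1 with log2 changes of -4.39 and -3.39. With median scaling, or with background subtraction, 3 of the 12 were called, and with the mouse as a block Klrk1 (limma adjusted p = 0.0512) and Prf1 (0.0531) lost their calls. The summed level of 12 dendritic cell markers was 522 to 2163 TPM in non-CLL, 116 to 459 TPM in wild-type and 149 to 353 TPM in CLL libraries, and 7 of 12 were called lower in CLL than in non-CLL cells, or 4 with median scaling. Of 16 T cell markers, 4 were called lower (Cd4, Il7r, Cd8b1 and Cd8a), of which Cd8a was not called with the mouse as a block (limma adjusted p = 0.0512) and neither Cd8a nor Cd8b1 with median scaling. Cd8a, at 9.19 to 12.1 TPM in non-CLL libraries, lay under the 95th percentile of olfactory receptor genes in each of them. The part of these cells in the non-CLL values was not tested.

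The levels of single markers stood beside the members as follows. In non-CLL libraries 2, 4, 5 and 6, Ncr1, the NK cell receptor NKp46, was at 14.7, 45.5, 25.5 and 149.8 TPM, while Tbx21 was at 51.6, 28.5, 37.8 and 24.0 TPM in the same order. Library 6 had the highest Ncr1 and library 2 the highest Tbx21. In wild-type libraries 1, 2 and 3 Ncr1 was at 0.266, 2.76 and 3.79 TPM and Cd3e, the T cell receptor subunit, at 0, 0.281 and 0 TPM, with Tox at 24.2, 308 and 132 TPM and Stat4 at 89.7, 26.8 and 67.7 TPM. Some other genes of the T cell list were higher there: Lck was at 144, 95.2 and 137 TPM, Cd2, with the highest mean of that list over the aged libraries (253 TPM), at 112, 166 and 201 TPM, and Cd3g at 0, 596 and 3.56 TPM. The young libraries also held Cd2 at 220 to 258 TPM and Lck at 27.5 to 35.5 TPM, with Cd3e at 0.157 to 3.58 TPM. Of the NK cell list, Ccl5 was at 45.5, 30.8 and 46.5 TPM and Il2rb at 11.8, 38.1 and 22.2 TPM in aged wild-type libraries 1, 2 and 3. The 12 markers of that list summed to 64.9, 105.3 and 113.3 TPM there, with 3, 0 and 2 of them at 0. Which cells gave this RNA was not tested. Wild-type library 2 had the highest Tbx21, Tox, Zeb2, Afap1 and Fcrl5 of the wild-type libraries, and the lowest Stat4 and Prkd3. It also had the plasmacytoid marker Siglech at 126 TPM, against 0 and 1.89 TPM in the other wild-type libraries. Its 9 B cell markers summed to 8736 TPM, against 15549 and 13432 TPM in wild-type libraries 1 and 3. The part of this library's make-up in the member values was not tested.

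**Figure D3:**
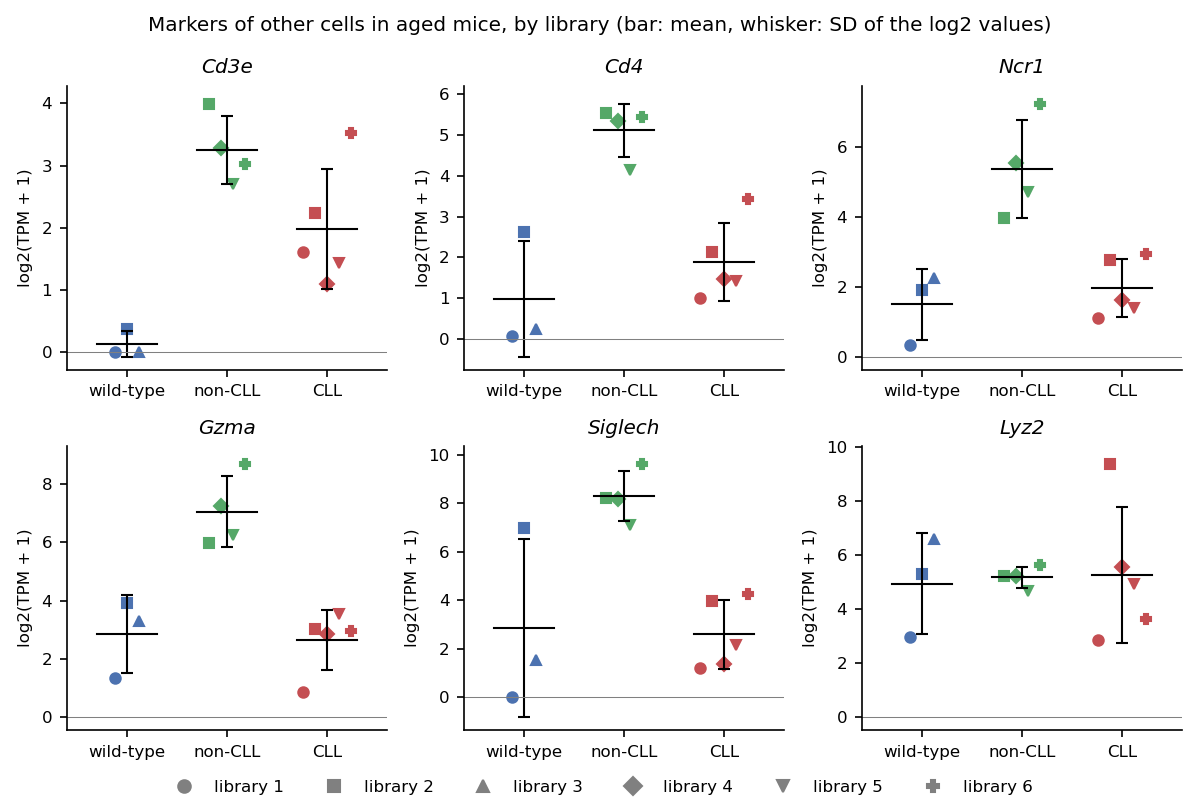
Markers of T cells (Cd3e, Cd4), NK cells (Ncr1, Gzma), plasmacytoid dendritic cells (Siglech) and myeloid cells (Lyz2) in the 12 aged libraries as log2(TPM + 1), with libraries as points, means as bars and SD of the log2 values as whiskers. Ncr1, Gzma and Siglech are highest in the non-CLL libraries, Cd3e is 0 in 2 wild-type libraries, and Lyz2 stands out in CLL library 2.

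Other genes of the age-associated B cell state and its inputs were read from lists that do not hold the 9 members, with limma on log2(TPM + 1) and Benjamini-Hochberg adjusted p under 0.05 as the call. In CLL against wild-type cells, 751 of 21202 genes were called (3.54%), and in CLL against non-CLL cells 1287 of 22316 (5.77%). Of 16 genes known to be high in age-associated B cells, 2 were called higher (Tnfrsf13b and Sox5) and 1 lower (Fas) in CLL than in wild-type cells. Against non-CLL cells 1 was called higher (Tnfrsf13b) and 2 lower (Cxcr3 and Fas).

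Fas, the death receptor, was at 5.80, 8.73, 2.94, 5.86 and 17.5 TPM in CLL libraries, 115, 43.0, 113 and 69.4 TPM in non-CLL libraries and 13.7, 147 and 43.6 TPM in wild-type libraries. Its log2 change was -3.32 (SE 0.41, limma adjusted p = 1.83e-05) against non-CLL and -2.52 (SE 0.65, limma adjusted p = 0.0479) against wild-type cells, and the second call was lost without CLL library 1 or 5, without the filter on low values (0.0593) and with a minimum of 5 TPM (0.085). Cxcr3, a chemokine receptor under T-bet control in T cells, was at 0.151, 7.88, 1.14, 1.51 and 9.19 TPM in CLL libraries against 28.4, 37.3, 53.7 and 125 TPM in non-CLL libraries. Its log2 change was -3.90 (SE 0.63, limma adjusted p = 0.00335), a call lost with a pseudocount of 0.1 (limma adjusted p = 0.0524). Wild-type libraries held 24.6, 218 and 6.35 TPM of Cxcr3. Wild-type library 3 lay below CLL libraries 2 and 6, and Cxcr3 was not called against wild-type cells. Fas and Cxcr3 were lower in every CLL library than in every non-CLL library, like most of the 9 members. In contrast, Tnfrsf13b, which encodes the receptor TACI, was at 273, 613, 629, 840 and 443 TPM in CLL libraries and at 203, 229, 150.4 and 109 TPM in non-CLL libraries. Its log2 change was 1.65 (SE 0.30, limma adjusted p = 0.00275). Against wild-type cells the Tnfrsf13b call (log2 change 1.62, limma adjusted p = 0.00213) was lost with median scaling or background subtraction, as was that of Sox5.

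Among 22 receptors, kinases and transducers upstream of T-bet, 1 was called lower in CLL than in wild-type cells (Il21r) and 2 lower than in non-CLL cells (Il21r and Ifngr2). Il21r, the interleukin-21 receptor, had a mean of 22.9 ± 13.1 TPM (SD, n = 5) in CLL, 75.1 ± 20.4 TPM (n = 4) in non-CLL and 69.3 ± 20.3 TPM (n = 3) in wild-type cells. Its log2 change was -1.68 (limma adjusted p = 0.0111) against wild-type cells. That call was lost with a minimum of 5 TPM (limma adjusted p = 0.0659), with background subtraction (0.0559) and without wild-type library 1 (0.0715). Against non-CLL cells the change was -1.79 (limma adjusted p = 0.00526), not called with median scaling (limma adjusted p = 0.115) or with the mouse as a block (0.0519). Ifngr2 was not called with that block either (0.0726).

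Of 12 genes that age-associated B cells are known to express at a low level, Bach2, a repressor of plasma cell and effector fates, was the 1 called in CLL against wild-type cells, and it was lower (log2 change -2.51, SE 0.43, limma adjusted p = 0.000674). Against non-CLL cells Bach2 and the chromatin organiser Satb1 were called lower and Cd24a higher. Satb1 was at 5.70 ± 4.41 TPM (SD, n = 5) in CLL and 38.6 ± 10.7 TPM (n = 4) in non-CLL cells. Fas, Tnfrsf13b and Satb1 were called against non-CLL cells under all 17 alternative settings, whereas Ifngr2 and Tox3 lost their calls under 13 and 11 of them. Genes of both lists, high and low in age-associated B cells, were among those called lower.

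**Figure D4:**
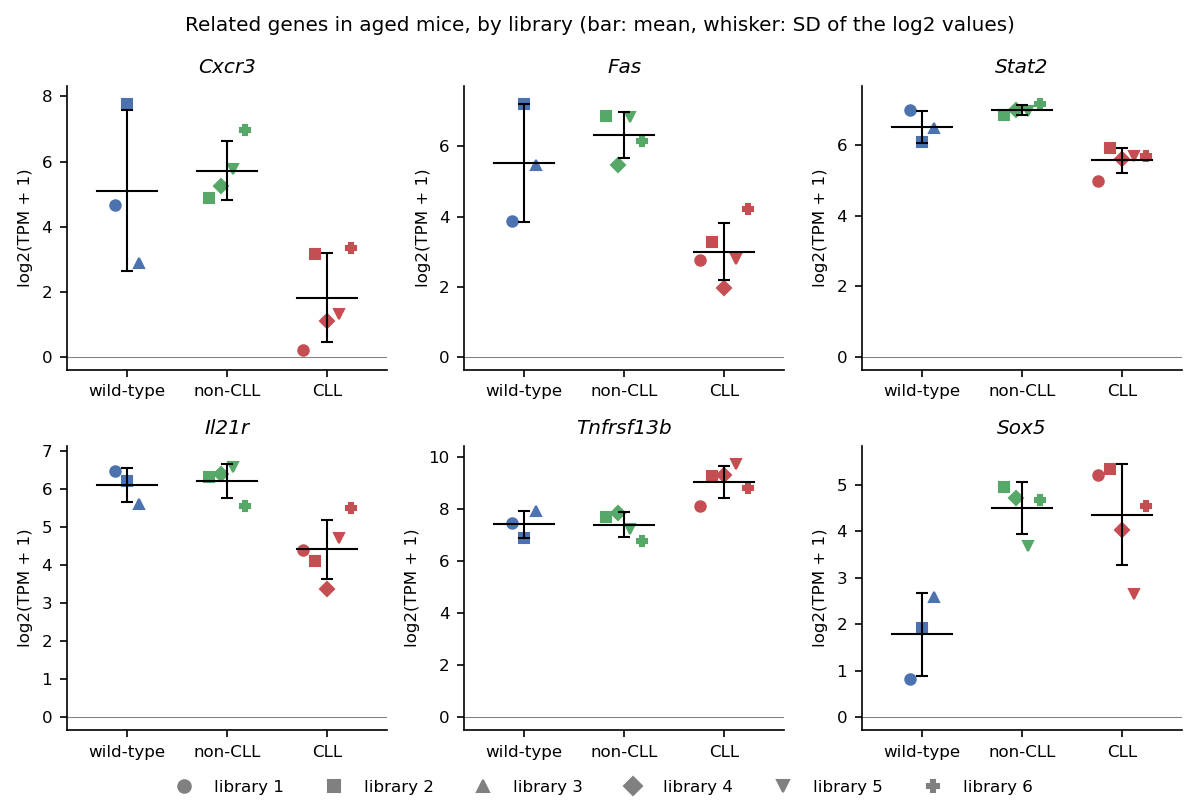
Related genes Cxcr3, Fas, Stat2, Il21r, Tnfrsf13b and Sox5 in the 12 aged libraries as log2(TPM + 1), with libraries as points, means as bars and SD of the log2 values as whiskers. Stat2 and Il21r are lowest in CLL libraries, Cxcr3 and Fas are lower there than in all non-CLL libraries, and Tnfrsf13b is higher there than in all other libraries.

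Close relatives of the 9 genes were read the same way. Of 26 family members (T-box, TOX, STAT, ZEB, integrin, Fc receptor-like, DPP, PRKD and AFAP genes), limma called 0 in CLL against wild-type cells, where 10 had an unadjusted p under 0.05 and 8 were called with a pseudocount of 0.1 and 3 with median scaling, and called Tox3 and Stat2 lower than in non-CLL cells. The call for Tox3 (limma adjusted p = 0.0385) was lost under 11 of 17 alternatives, with adjusted p up to 0.104. Stat2 was at 47.6 ± 10.5 TPM (SD, n = 5) in CLL and 126 ± 12.1 TPM (n = 4) in non-CLL cells (log2 change -1.41, SE 0.27, limma adjusted p = 0.00406), and with median scaling the change was -0.64 and not called (limma adjusted p = 0.22). The median log2 change of the family list was 0.12 against wild-type and -0.77 against non-CLL cells, beside medians of all genes of 0.93 and -0.77.

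In non-CLL against wild-type cells 12681 of 22150 genes were called (57.3%), 97.4% of them higher, and the median of all genes was 1.65. This count fell to 43 genes after the olfactory receptor median was subtracted from each library. The 9 members went from -1.22 for Tox to 0.66 for Itgax, all below that median. Of the family list 9 were called higher, led by Fap, Tox3, Eomes and Prkd1 with non-CLL means of 8.48 to 13.2 TPM, which is the range of the olfactory receptor genes in these libraries, and after background subtraction Fap lost its call (limma adjusted p = 0.0603) and the other 3 fell below the filter.

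The genes whose profile over the 12 aged libraries was most like the mean profile of the 9 members were Slfn8, St8sia4, St6gal1, Gpr171, Samsn1 and Znrf3. Likeness was the root mean square difference of centred log2(TPM + 1) values among 13853 genes with a mean of at least 5 TPM, and it ran from 0.40 for Slfn8 to 0.52 for Znrf3. Members themselves were at 0.44 (Dpp4) to 1.82 (Fcrl5). Slfn8 was at 19.6 ± 5.23 TPM (SD, n = 5) in CLL, 113 ± 30.2 TPM (n = 4) in non-CLL and 103 ± 12.4 TPM (n = 3) in wild-type cells.

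In young mice the 9 genes did not move together. The test across 12219 genes called 6237 (51.0%), of which 4698 were higher (38.4% of genes tested) and 1539 lower (12.6%) in homozygous cells. Of the 8 members that passed the filter, Prkd3 and Dpp4 rose and Fcrl5 fell, so 3 of 8 were called. Their median log2 change was 0.19, against 0.18 for all genes tested. Tox, at 0.18 to 1.16 TPM in all 6 libraries, was below the filter, and Tbx21 did not exceed 5.31 TPM. Of the 3 genes in the name of the programme, Stat4 was well detected in young B cells, at 33.1 to 59.9 TPM, and Tox was not. Stat4 and Dpp4 had the highest group means of the 9 in homozygous cells.

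Prkd3 was at 24.8, 25.4 and 26.6 TPM in wild-type and 34.4, 37.2 and 37.5 TPM in homozygous libraries. The groups did not overlap, and the log2 change was 0.49 (SE 0.08, limma adjusted p = 0.00134). Dpp4 was at 42.1, 40.4 and 45.5 TPM in wild-type and 52.2, 55.5 and 59.2 TPM in homozygous libraries, with every homozygous library higher (log2 change 0.38, SE 0.08, limma adjusted p = 0.00561). Fcrl5 was at 40.9, 42.5 and 44.5 TPM in wild-type and 33.5, 27.5 and 31.9 TPM in homozygous libraries, all lower (log2 change -0.45, SE 0.09, limma adjusted p = 0.0038).

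Tbx21 was at 3.94, 5.31 and 4.38 TPM in wild-type and 3.90, 3.63 and 3.87 TPM in homozygous libraries. The groups were just apart, but the change of -0.20 was not called (SE 0.14, limma adjusted p = 0.258), and with libraries scaled to a common median it was -0.40 and called (limma adjusted p = 0.0483). Groups lay fully apart for 2 members upward and 2 downward, against 44.5% and 16.9% of all genes. Stat4 was at 33.1, 35.6 and 55.1 TPM in wild-type and 45.6, 59.9 and 50.0 TPM in homozygous libraries. Its change of 0.35 (SE 0.21, limma adjusted p = 0.197) was not called, and it was 0.57 and called without wild-type library 3 (limma adjusted p = 0.00424).

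Zeb2 was at 12.9 ± 2.37 TPM (SD, n = 3) in wild-type and 14.5 ± 0.864 TPM (n = 3) in homozygous cells, Itgax at 22.0 ± 3.64 and 18.9 ± 3.05 TPM, and Afap1 at 1.44 ± 0.201 and 1.82 ± 0.357 TPM. None of these 3 was called, with limma adjusted p from 0.262 to 0.329. Wild-type libraries 1 and 2 carried female transcripts, with Xist at 80.9 and 63.1 TPM against at most 0.0567 TPM in the other 4 young libraries. Those 4 carried male transcripts, with Ddx3y at 54.3 TPM in wild-type library 3 and 107 to 148 TPM in homozygous libraries. Sex therefore differed between the young groups, the tests did not adjust for it, and its part was not tested. Wild-type libraries 1 and 2 also had the highest Lyz2, 1443 and 2330 TPM against 58.2 to 222 TPM. With both left out, 1 wild-type library remained, which is assumed to vary like the homozygous ones, and calls over all genes went from 6237 to 2858. In that fit Prkd3 and Fcrl5 were called, Dpp4 was not (log2 change 0.28, limma adjusted p = 0.131), and the sign for Stat4 turned (-0.09).

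**Figure D5:**
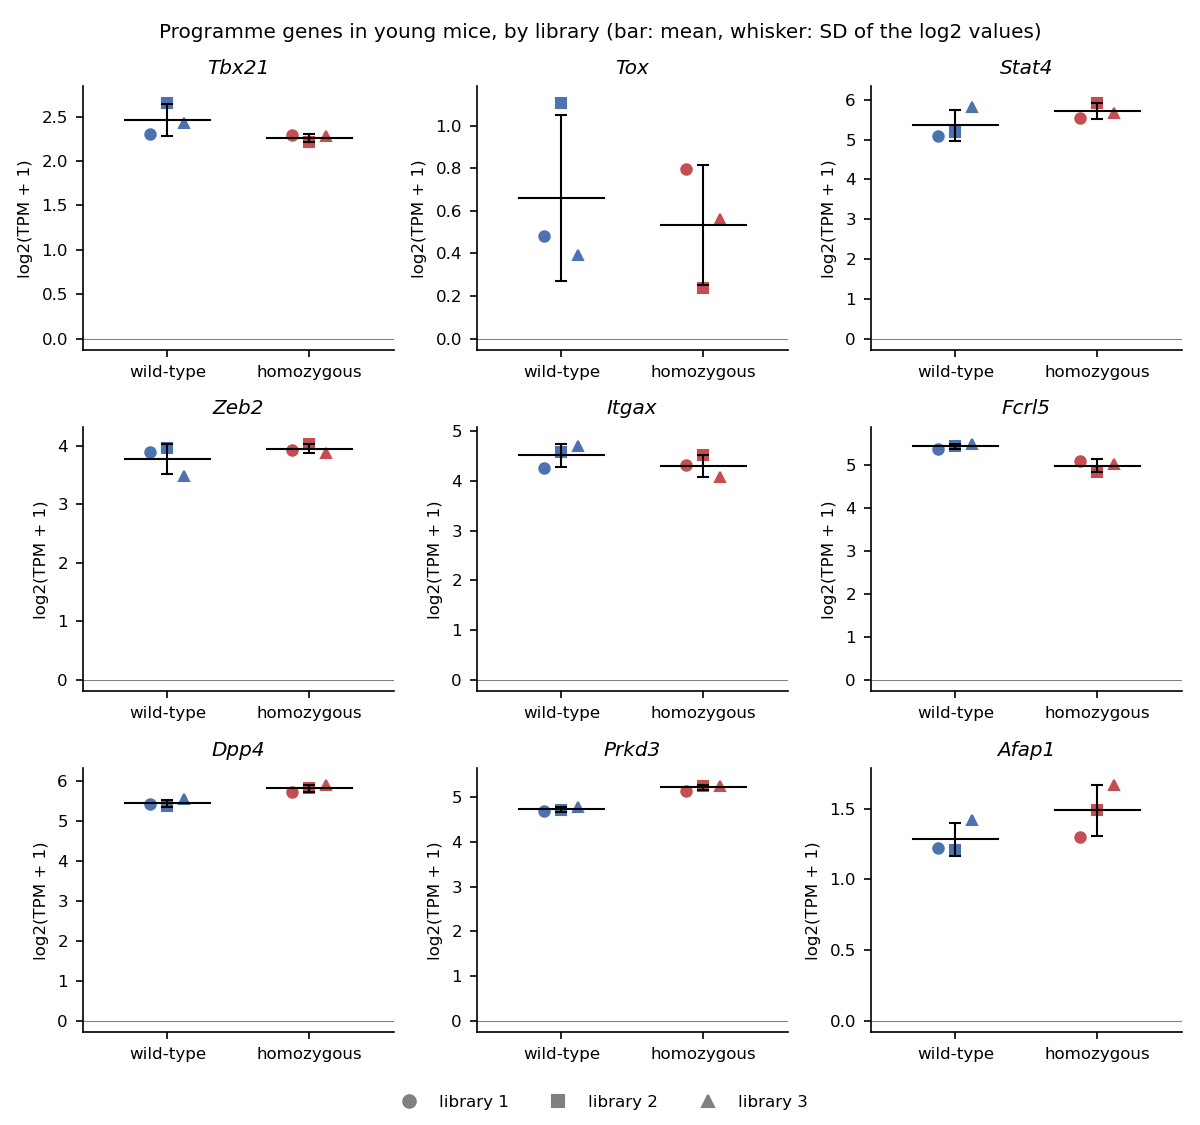
Level of each of the 9 genes in the 6 young libraries as log2(TPM + 1), with 3 wild-type and 3 homozygous libraries as points, the group mean as a bar and the SD of the log2 values as a whisker. Prkd3 and Dpp4 are higher and Fcrl5 is lower in every homozygous library, and Tox stays near 0 in both groups.

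Around the members, the lists of genes with known low or high levels in age-associated B cells are read against the 38.4% of all genes called higher and the 12.6% called lower. Of 12 genes that are low in that state, 9 were called higher and 1 lower, with a median log2 change of 0.55. Klf2, a factor that holds B cells in a resting, recirculating state, rose from 221, 198 and 199 to 537, 553 and 525 TPM (log2 change 1.38, SE 0.08, limma adjusted p = 1.44e-05). Bach2 rose from 38.9 ± 5.01 to 77.6 ± 8.33 TPM (SD, n = 3 each, log2 change 0.98, SE 0.12, limma adjusted p = 0.000433), Foxo1 rose by 0.82 and Fcer2a, which encodes CD23, by 0.75. The 1 that fell was Cxcr5 (log2 change -0.73).

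Of 15 tested genes of the list high in age-associated B cells, 6 were called lower and 1 (Tlr9) higher, with a median of -0.30. Lgals1, encoding galectin-1, fell from 53.5, 80.1 and 47.6 to 17.0, 14.5 and 15.3 TPM (log2 change -1.85, SE 0.19, limma adjusted p = 0.000488). Zbtb32 and Cxcr3 fell by 1.07 and 1.03, and Ahnak by 0.52. Against wild-type library 3 alone, 2 of this list were called rather than 7, with fewer calls over all genes too. Myeloid markers moved with this list. Their summed level was 1607 to 5795 TPM in wild-type and 266 to 599 TPM in homozygous libraries, and 5 of 13 were called lower. NK cell markers summed to 80.1 to 280 TPM in wild-type and 49.0 to 72.8 TPM in homozygous libraries, and 2 of 10 tested were called lower. T cell markers summed to 279 to 345 and 302 to 313 TPM, with 2 of 11 called lower. Dendritic cell markers summed to 143 to 212 and 136 to 168 TPM, with 1 of 12 called higher and 1 lower. The part of these other cells in the changes was not tested.

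Of 21 tested genes upstream of T-bet, 10 were called higher and 4 lower, beside 38.4% and 12.6% of all genes. The cytokine receptor chain gene Il2rg and its kinase gene Jak3 rose by 0.67 and 0.69, while the feedback inhibitors Socs3 and Socs1 fell by 1.23 and 1.15. Against wild-type library 3 alone 4 of this list were called. Of 18 tested family members 11 were called higher and 1 lower (Itgb2), led by Fcrlb, Dpp7, Zeb1 and Stat6 with log2 changes of 0.86, 0.75, 0.59 and 0.56, and 3 were called against that library alone.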

How the data were processed

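Expression in 18 of 30 samples was used. The other 12 are chromatin samples, not analysed here, and 3 of them have labels that disagree. The aged values are TPM made by the authors, per the labels. The unit of the deposited young table is taken as TPM because its values add up to the full scale of that unit in each library. Per the submitters' processing notes the build was mm10 and the tools were MACS2 2.2.0, STAR 2.4.0.1 and Bowtie2 2.3.4.1, with no roles named. Quantifier, strandedness and annotation are among what is not given in the sources used here. Of 22806 aged and 27179 young entries, 25 and 26 date-like names and 887 young entries without a name (4.44% to 9.37% of TPM) were dropped.

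A gene was tested if the number of libraries at 1 TPM or more reached the size of the smaller group. Values were compared as log2(TPM + 1) with limma 3.58.1 in R 4.3.3 (trend, robust, two-sided, 4 comparisons), and called at a Benjamini-Hochberg adjusted p under 0.05. Fold changes on this scale understate low genes. On simulated data, changes of log2 size 2 were recovered at 99% for the young comparison, 71% for CLL against wild-type, 84% for CLL against non-CLL and 62% for non-CLL against wild-type. For log2 size 1 the shares were 94%, 13%, 14% and 6%, and false calls made up 3.02%, 7.69%, 4.85% and 6.85% of calls. The changed genes were drawn from well expressed genes only, with independent normal noise and no floor shared within a library. These shares therefore do not apply to genes near the floor or to shifts of whole libraries. CLL and non-CLL libraries were paired by the number in their labels, since the series' design text says that they come from the same mice. The correlation of their deviations was low, at -0.023, 0.0182, 0.105 and 0.124 for mice 2, 4, 5 and 6. The members and lists were chosen with earlier results of these data known, and a few genes of the lists are not reported here. Besides the 9 members, Ikzf3 and the 6 genes nearest in profile, the text names per list and comparison up to 4 called genes with the largest change and the most abundant marker. Other markers, Cxcr5, Tlr9, Itgb2, Ifngr2, Cd24a and the sex-linked Xist and Ddx3y were named after their values were seen. In young wild-type cells Ikzf3 was at 246 ± 31.2 TPM (SD, n = 3) and in young mutants at 413 ± 29.6 TPM (n = 3), and as the mutation is a missense change this does not check the labels.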

Additional observations from a re-analysis of the deposited data

Results flagged for a closer look

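Of 18 groups of 4 or 5 aged libraries tested for an outlying library across the 9 genes, 1 had one, where chance gives about 1 in 20. It was Stat4 in CLL cells, where the homozygous library 6 stood at 11.8 TPM and its gap to the next library was 0.719 of the group's range. The same library had the highest olfactory receptor median of the 5.

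For Dpp4 and Prkd3 the mutant libraries lay fully apart from wild-type libraries in opposite directions at the 2 ages. The ratio of mean Dpp4 TPM was 1.30 for young homozygous over wild-type cells and 0.588 for aged non-CLL over wild-type B cells. For Prkd3 the ratios were 1.42 and 0.635. Of all genes tested, 44.5% lay fully apart upward in the young mice and 2.33% fully apart downward in aged non-CLL against wild-type cells. The difference between ages was not tested, since the tables were made separately, the young mutants are homozygous and most aged ones heterozygous. Sex also differed between the young groups. The aged wild-type libraries are part of the contrast on which the members were picked.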

How the results depend on the processing

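The share of called genes that were higher went with median scaling from 75.3% to 51.1% in the young comparison, from 83.0% to 15.1% for CLL against wild-type, from 12.9% to 64.6% for CLL against non-CLL and from 97.4% to 46.5% for non-CLL against wild-type, where the shift of all genes on the log2 scale was 0.18, 0.93, -0.77 and 1.65 before scaling. The young count of 6237 called genes became 2858 without wild-type libraries 1 and 2 (1 library against 3), and 6631 with the replicate number as a block. These numbers are only names (same-number correlations -0.102, 0.242 and 0.316). The CLL against wild-type count of 751 became 8853 with a pseudocount of 0.1, 457 without a filter, 207 with a minimum of 5 TPM, 1155 with median scaling and 101 with background subtraction, and 345 to 8222 with 1 library left out, more than 1.5 times away from 751 for each library but CLL library 2. The CLL against non-CLL count of 1287 became 256 with a pseudocount of 0.1, 280 with median scaling, 348 with background subtraction, 11173 without mouse 6, 799 with the replicate block by mouse and 333 for mice 2, 4, 5 and 6 without the block (an alternative chosen after seeing the data), and 325 to 11118 with 1 library left out. Each library moved it by more than 1.5 times, and the lowest came without non-CLL library 4 and the highest without CLL library 6. Of the non-CLL against wild-type calls, 43 were left in number with background subtraction, and 11315 to 12862 with 1 library left out. The causes were not tested.

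Among members, the sign reversed for young Zeb2 with median scaling (-0.025) and young Stat4 with wild-type libraries 1 and 2 out (-0.094), for Fcrl5 in CLL against wild-type with median scaling (-0.43), and in non-CLL against wild-type for Tbx21 (-1.45 with median scaling, -0.23 with background subtraction, and -0.20 to 0.58 with 1 library left out, negative without non-CLL library 2, at -0.0099, or wild-type library 1), for Zeb2 (-1.02) and Itgax (-0.98) with median scaling and for Afap1 (-0.87 to 0.11 with 1 library left out, positive without wild-type library 2). The 8 members lower in CLL than in non-CLL cells kept that sign under every alternative run. Low levels are limited by the olfactory floor: 3 to 7 of the 9 members lay under its 95th percentile in each CLL library.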
